A study of Rattus norvegicus with 6 samples.

Results

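The Shank, Dlgap and Dlg genes were followed in the hippocampus of Fmr1 KO rats, 10 genes in all out of 17455 in the count table. They were Shank1, Shank2 and Shank3, Dlgap1 to Dlgap4, and Dlg2, Dlg3 and Dlg4, taken by matching each symbol to the gene names of the table, and all 10 passed the filter on low counts that left 11800 genes for testing. RNA-seq had been carried out on hippocampal tissue from 3 WT and 3 KO male rats on the Long Evans background, aged 10 weeks. KO rats carried the LE-Fmr1em2Mcwi allele, a germline change made to inactivate the gene of the RNA-binding protein FMRP in the whole animal, and no rat received a treatment. WT and KO rats were bred as littermates, but the methods state 1 litter per group for transcriptomics and the labels give no litter for any rat, so a part of litter in the differences was not tested.

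The postsynaptic density is a protein mesh under the membrane of excitatory synapses, and the genes studied here encode its layers. DLG proteins (the PSD-95 family) lie nearest the membrane and hold glutamate receptors and adhesion molecules through their PDZ domains. DLGAP proteins (also called SAPAP or GKAP) bind the guanylate kinase domain of DLG proteins and, at their other end, the PDZ domain of SHANK proteins, which in turn reach Homer, cortactin and the actin skeleton. In mouse and rat neurons, mRNAs of several of these genes, among them Dlg4, Dlgap3 and Shank family members, are known to be bound by FMRP, which mainly restrains their translation. The comparison therefore asks whether the mRNA level of each layer, and of the paralogs within a layer, differed when FMRP was missing.

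Library totals ran from 9619812 to 13390476 counted reads, with a median of 11856971. Levels are given as CPM, read counts relative to library size after TMM scaling, which allow libraries to be compared but not genes of different length, so no order of levels between genes is drawn. Fmr1 itself was at 47.6, 50.6 and 51.6 CPM in WT and at 17.4, 13.1 and 11.6 CPM in KO (log2 fold change -1.83, SE 0.12, adjusted p = 5.7e-06, edgeR quasi-likelihood test with Benjamini-Hochberg adjustment), as the labels of the libraries state. Pan-neuronal markers summed to 5620 to 6296 CPM in WT and 5945 to 6380 CPM in KO, and those of dentate granule cells and CA pyramidal cells were present in every library. WT replicate 3 stood apart from the other WT libraries. Along the leading principal component (28.8% of variance) it lay at 6.20, among the KO libraries (5.49 to 11.01) and away from WT replicates 1 and 2 (-19.6 and -12.4), so results are given with and without it where they differ. It was not the only library to stand apart. Along the second component (21.7% of variance) KO replicate 3 lay at 20.1, and all other libraries between -12.8 and 1.91.

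Among the 10 genes, 1 linker and 1 deep scaffold were lower in KO at an unadjusted p. Dlgap3 was 23.1% lower and Shank3 was 15.0% lower, whereas no Dlg gene and no other Shank or Dlgap gene passed even the unadjusted threshold. With the study's own threshold, an unadjusted p under 0.05, 2 of the 10 genes were lower and 0 were higher, against 5.15% of all genes tested that were lower and 4.19% that were higher. At an adjusted p under 0.05 edgeR called 0 of the 10, against 0.0254% of all genes (3 genes). DESeq2, the tool named in the methods, called 1 of the 10, Dlgap3, against 0.482% of the genes to which it gave an adjusted p. It also put 2 of the 10 lower at an unadjusted p under 0.05, against 3.24% of the 14474 genes to which it gave a p. These genes had not passed through the filter on low counts, so this share is not on the same genes as that of edgeR. The log2 fold changes of the 10 genes were negative for 4 and positive for 6, with a median of 0.0059 against 0.0017 over all genes tested. Their median absolute log2 fold change was 0.093, and that of all genes was also 0.093. These medians were not matched for level, so they do not compare the 10 genes with genes of like level. In the plot of all genes by level, 8 of the scaffold genes lay in the bulk of the cloud and Dlgap3 and Shank3 below it.

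**Figure D1:**
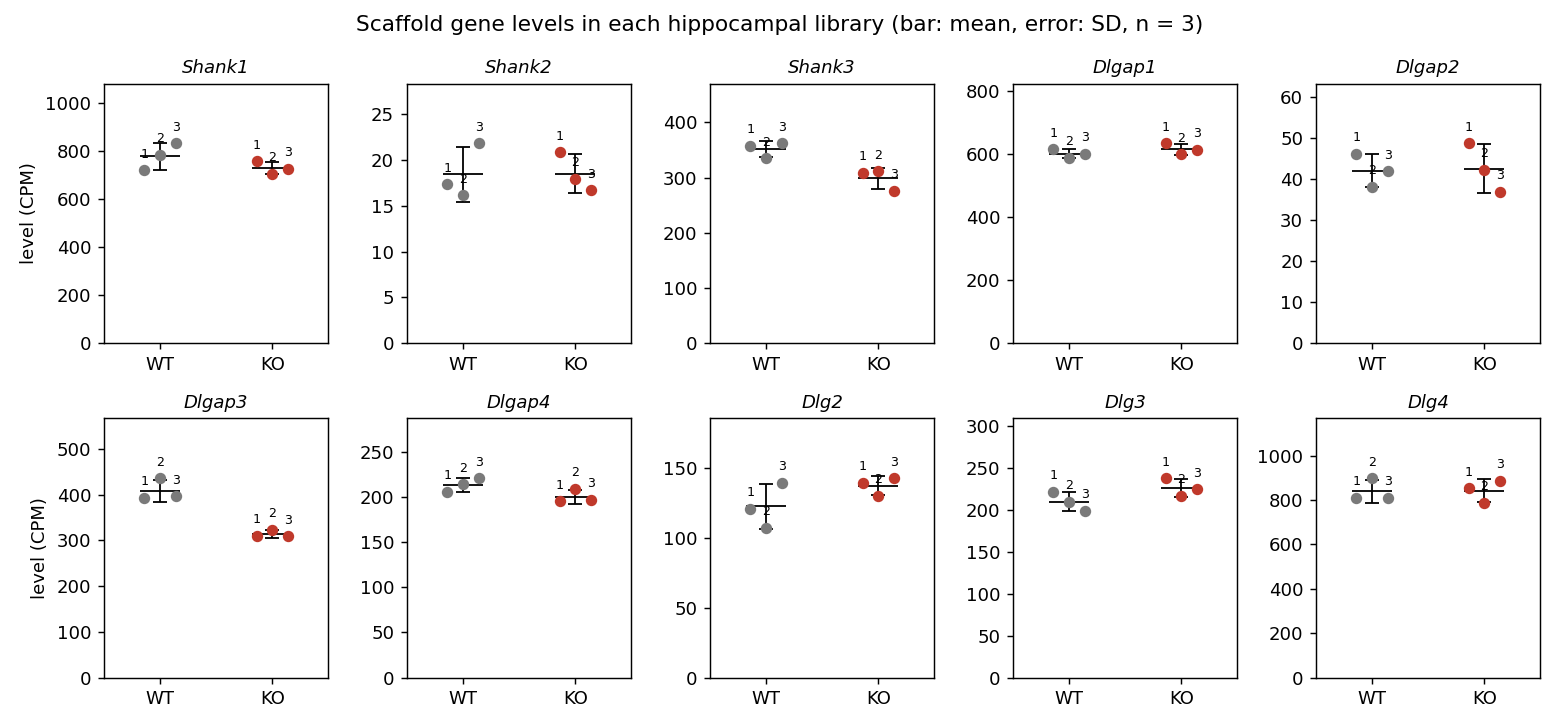
Level of each scaffold gene in CPM (y axis, from 0, with its own scale per gene) in the 3 WT and 3 KO libraries (points, numbered by replicate), with the mean as a bar and the SD as error bars. Only for Dlgap3 and Shank3 did all 3 KO points lie below all 3 WT points.

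**Figure D2:**
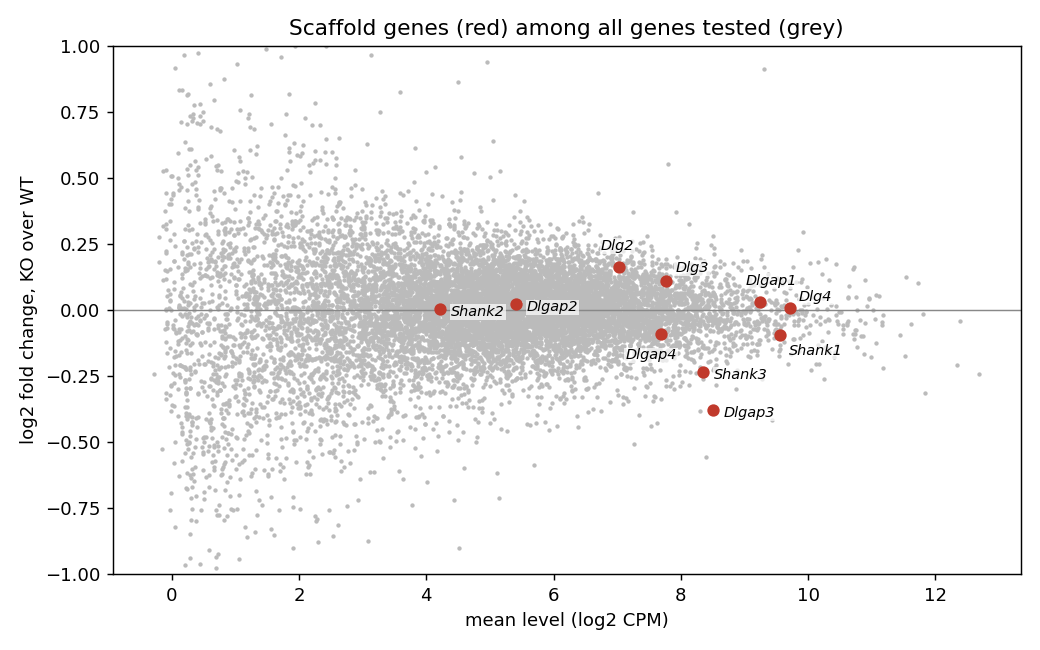
Log2 fold change of KO over WT against the mean level in log2 CPM for the genes tested (grey) and the 10 scaffold genes (red). The y axis ends at 1 in either direction, which leaves out 32 genes. Dlgap3 at -0.38 and Shank3 at -0.23 lay at the lower edge of the genes of like level.

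DLGAP proteins are the linkers of the postsynaptic density, and the 4 paralogs did not move together. Dlgap3 (SAPAP3), whose loss in mice is known for compulsive grooming, was at 393, 436 and 397 CPM in WT and at 311, 324 and 309 CPM in KO. Every KO library was below every WT library, and the lowest WT value was 69.4 CPM above the highest KO value. The mean went from 408 ± 23.8 CPM to 314 ± 8.08 CPM (SD, n = 3 each). This came to -0.38 in log2 (SE 0.062). By p, Dlgap3 ranked at place 4 of the 11800 genes in edgeR, just after the 3 genes called, with an unadjusted p of 2.2e-05 and an adjusted p of 0.0642. DESeq2 gave an adjusted p of 5.1e-05. The call in edgeR moved with the libraries used, with an adjusted p of 0.0110 without WT replicate 3, 0.0431 without WT replicate 1, and 0.111 to 0.399 without any other library. The log2 fold change stayed between -0.41 and -0.33 in these fits.

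Dlgap1, the most studied partner of PSD-95 in this family, was at 615, 587 and 599.6 CPM in WT and at 633, 598 and 612 CPM in KO. These ranges overlapped, and the log2 fold change was 0.03 (SE 0.057, adjusted p = 0.891, edgeR). Dlgap2 was at 46.1, 38.1 and 41.9 CPM in WT and at 48.7, 42.2 and 36.9 CPM in KO, with the highest and the lowest library both in KO. Its log2 fold change was 0.02 (SE 0.11), and its sign turned when WT replicate 2 or KO replicate 1 was left out. Dlgap4 was at 205, 214 and 221 CPM in WT and at 195, 209 and 197 CPM in KO, and KO replicate 2 lay above WT replicate 1. Its log2 fold change of -0.09 (SE 0.060, adjusted p = 0.673, edgeR) had the sign of Dlgap3 but was within the spread between libraries.

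The ratio of 2 paralogs in the same library does not depend on how libraries are scaled, so it compares paralogs apart from that scaling. Of the 12 pairs of paralogs compared within the 3 families, 3 had ratios that did not overlap between WT and KO with all 6 libraries. All 3 contained Dlgap3, so they share its lower level and are not separate results. Among single genes tested, 7.52% had every KO library below every WT library and 7.19% had them all above. No such share was taken for ratios. The log2 ratio of Dlgap1 to Dlgap3 was 0.65, 0.43 and 0.60 in WT and 1.03, 0.89 and 0.99 in KO, a difference of 0.41 (SE 0.077). That of Dlgap2 to Dlgap3 was higher in KO by 0.39 (SE 0.17). That of Dlgap3 to Dlgap4 was 0.94, 1.03 and 0.85 in WT and 0.67, 0.63 and 0.65 in KO, a difference of -0.29 (SE 0.053). Each of the 3 had p = 0.1 in a two-sided exact permutation test over the 6 libraries, the smallest p that 3 against 3 allows, so no pair could pass 0.05. Among Dlgap1, Dlgap2 and Dlgap4 all pairs overlapped between genotypes with all 6 libraries (exact permutation p = 0.2 to 1). The Dlgap1 to Dlgap4 ratios no longer overlapped without WT replicate 1 or without KO replicate 2 (difference 0.17 in each, with no test). Every pair was taken without each library in turn, and fewer libraries make a lack of overlap more likely by itself. Such gaps, here and for the other families below, therefore do not show a difference between paralogs. The 4 Dlgap genes summed to 1259, 1275 and 1259 CPM in WT and to 1187, 1172 and 1154 CPM in KO. Without Dlgap3, a sum chosen after its value was seen, the other genes of the family came to 856 ± 14.5 CPM in WT and 857 ± 17.0 CPM in KO (SD, n = 3 each).

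**Figure D3:**
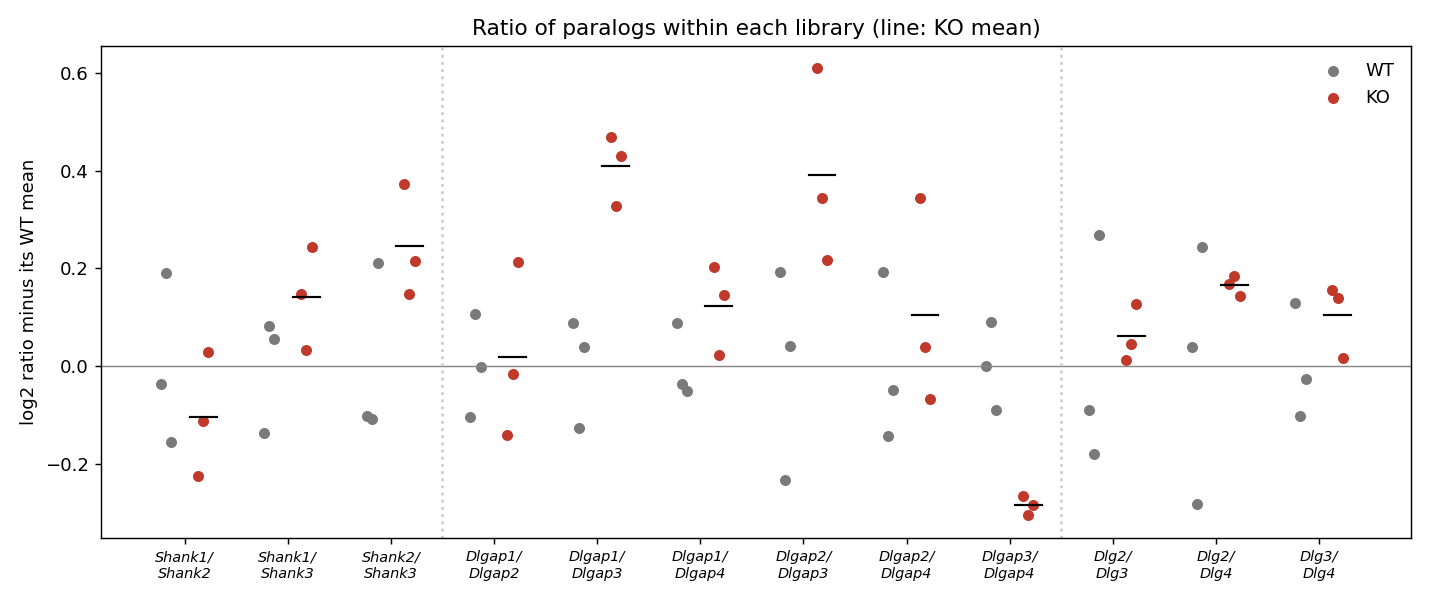
Log2 ratio of the levels of each pair of paralogs (x axis) in each library, minus the mean of the WT libraries (y axis, log2 units), with WT in grey, KO in red and a line at the KO mean. Dotted lines divide the Shank, Dlgap and Dlg families. The 3 pairs with Dlgap3 are the ones in which red and grey points do not overlap.

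SHANK proteins are the master scaffolds of the deep layer of the postsynaptic density, and human SHANK3 is the gene tied to Phelan-McDermid syndrome and to autism. Shank3 was at 358, 335 and 362 CPM in WT and at 309, 311 and 277 CPM in KO. All 3 KO libraries were below all 3 WT libraries, with a gap of 23.8 CPM between WT replicate 2 and KO replicate 2. The mean went from 352 ± 14.5 CPM to 299 ± 19.3 CPM (SD, n = 3 each). This came to -0.23 in log2 (SE 0.065, unadjusted p = 0.0026, adjusted p = 0.312 in edgeR and 0.110 in DESeq2). Over the fits that left out 1 library it ran from -0.27 to -0.18, with an unadjusted p from 0.0029 to 0.018 and an adjusted p of 0.106 at its lowest, without WT replicate 3. Shank3 was singled out in the study on these same libraries, so its place among the 10 genes is not independent evidence of its direction. Together, Dlgap3 and Shank3 were the 2 of 10 genes whose KO libraries all lay below the lowest WT library, against 7.52% of all genes tested, and 0 of 10 had them all above the highest, against 7.19%.

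Shank1, which is found in forebrain neurons and whose loss in mice is known to make dendritic spines smaller, was at 719, 784 and 831 CPM in WT and at 756, 704 and 724 CPM in KO. WT replicate 1 lay inside the KO range, and the log2 fold change was -0.10 (SE 0.065, adjusted p = 0.676, edgeR). It was -0.15 without WT replicate 1 (unadjusted p = 0.041) and -0.05 without WT replicate 3 (unadjusted p = 0.454). Shank2 was the least read of the 10 genes, at 17.4, 16.2 and 21.8 CPM in WT and 20.8, 17.9 and 16.7 CPM in KO. Its SE of 0.13 was the highest among them, DESeq2 gave it no adjusted p, its log2 fold change was 0.01, and a change of the size seen for Shank3 would be under 2 SE at this depth. The log2 ratio of Shank1 to Shank3 was higher in KO by 0.14 (SE 0.092, exact permutation p = 0.3) and that of Shank2 to Shank3 by 0.25 (SE 0.12, exact permutation p = 0.2), and both overlapped between genotypes. With all libraries a difference between Shank3 and its paralogs was thus not shown. Without WT replicate 3 the Shank2 to Shank3 ratios no longer overlapped and their difference was 0.35, with no test. Without KO replicate 2 neither the Shank1 to Shank3 nor the Shank2 to Shank3 ratios overlapped. Their differences were then 0.20 and 0.29, also with no test. The 3 Shank genes summed to 1148 ± 61.2 CPM in WT and 1045 ± 35.7 CPM in KO (SD, n = 3 each), without overlap. Without Shank3, a sum chosen after its value was seen, they came to 796 ± 58.2 and 746 ± 27.8 CPM. These overlapped, with the lower mean still in KO.

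DLG proteins form the layer at the membrane, and none of their genes was lower in KO. Dlg4, the gene of PSD-95 and a classical FMRP target, was at 809, 898 and 809 CPM in WT and at 853, 787 and 888 CPM in KO. The highest library was in WT, the lowest in KO and the log2 fold change was 0.01 (SE 0.066, adjusted p = 0.986, edgeR), with a sign that turned in 4 of the 6 fits without 1 library. Dlg3, the X-linked gene of SAP102, which carries NMDA receptors in young neurons, was at 221, 209 and 199 CPM in WT and at 238, 217 and 225 CPM in KO. KO replicate 2 lay below WT replicate 1, and the log2 fold change was 0.11 (SE 0.064, adjusted p = 0.604, edgeR).

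Dlg2, the gene of PSD-93, was the member with the largest positive value. It was at 121, 107 and 139 CPM in WT and at 139, 130 and 143 CPM in KO, so that WT replicate 3 sat in the KO range and the other WT libraries below it. The log2 fold change was 0.16 (SE 0.086, adjusted p = 0.557, edgeR) with all libraries. It was 0.27 (SE 0.072, unadjusted p = 0.0021, adjusted p = 0.0687) without WT replicate 3 and was 0.08 without WT replicate 2. Whether Dlg2 differed between genotypes therefore rested on which WT libraries were counted. All 3 pairs of Dlg paralogs overlapped between genotypes (exact permutation p = 0.2 to 0.8). Without WT replicate 3, and with no test, the ratios of Dlg2 to Dlg3 and of Dlg2 to Dlg4 no longer overlapped, and their differences went from 0.06 to 0.20 and from 0.17 to 0.29. Those of Dlg3 to Dlg4 no longer overlapped without WT replicate 1 (difference 0.17) or without KO replicate 3 (0.15), again with no test. The summed Dlg level was 1171 ± 37.9 CPM in WT and 1206 ± 64.1 CPM in KO (SD, n = 3 each). Dlg1, the gene of SAP97 and another paralog of the family, was at 80.7, 72.8 and 83.6 CPM in WT and at 78.7, 80.0 and 84.4 CPM in KO, with a log2 fold change of 0.04 (SE 0.074).

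**Figure D4:**
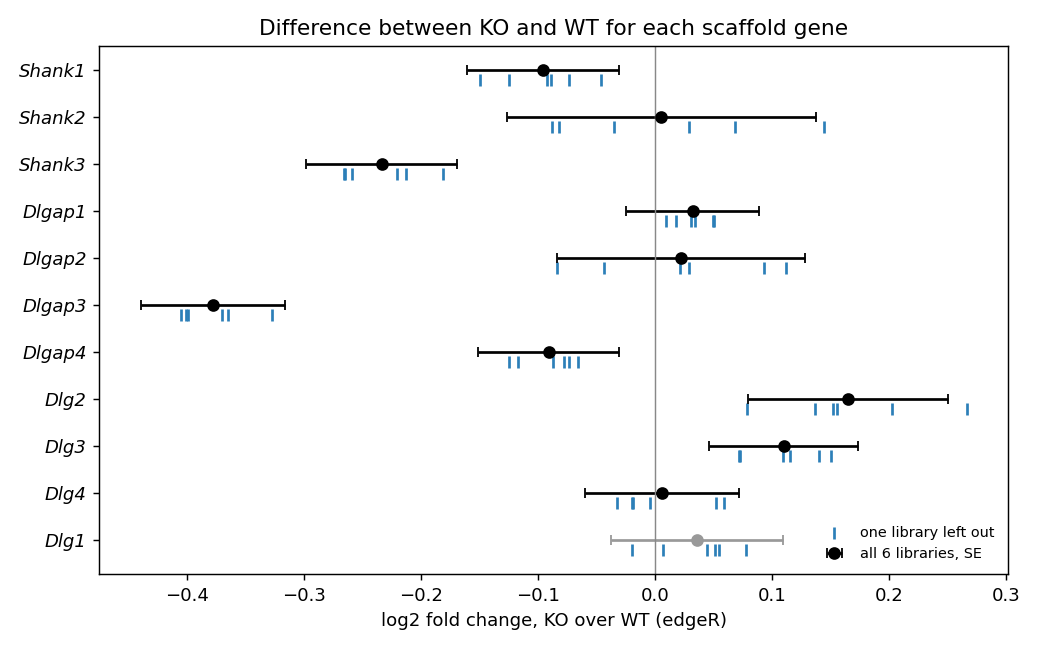
Log2 fold change of KO over WT (x axis) for the 10 scaffold genes and Dlg1, with the estimate from all 6 libraries and its SE (points and bars) and the estimates without each single library (blue marks). All marks of Dlgap3 (-0.41 to -0.33) and Shank3 (-0.27 to -0.18) lie on the negative side, while those of Shank2, Dlgap2, Dlg4 and Dlg1 lie on both sides of 0.

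The sequences around the annotated starts of the 2 genes with lower levels, and of Dlgap4 as a paralog that overlapped between genotypes, are shown to let their base composition be compared. They come from RefSeq on the GRCr8 build, 250 bases before to 50 bases after the start, and capitals mark every CG dinucleotide. Of the 10 genes, 6 had such a window, with 7 windows in all, and Shank1, Shank2, Dlgap2 and Dlg3 had none.
Dlgap3, chr5:144800015-144800314, + strand: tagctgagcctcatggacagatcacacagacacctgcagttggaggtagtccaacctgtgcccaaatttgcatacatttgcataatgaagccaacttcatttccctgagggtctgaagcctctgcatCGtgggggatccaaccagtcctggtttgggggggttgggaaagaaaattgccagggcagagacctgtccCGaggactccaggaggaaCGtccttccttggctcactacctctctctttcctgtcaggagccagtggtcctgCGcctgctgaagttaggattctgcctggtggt
Shank3, chr7:122448073-122448372, + strand: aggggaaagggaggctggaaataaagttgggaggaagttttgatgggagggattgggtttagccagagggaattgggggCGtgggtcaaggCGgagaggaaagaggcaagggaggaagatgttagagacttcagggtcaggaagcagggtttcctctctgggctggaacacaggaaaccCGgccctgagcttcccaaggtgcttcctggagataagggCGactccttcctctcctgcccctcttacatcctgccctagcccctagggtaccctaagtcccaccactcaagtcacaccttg
Dlgap4, chr3:165584110-165584409, + strand: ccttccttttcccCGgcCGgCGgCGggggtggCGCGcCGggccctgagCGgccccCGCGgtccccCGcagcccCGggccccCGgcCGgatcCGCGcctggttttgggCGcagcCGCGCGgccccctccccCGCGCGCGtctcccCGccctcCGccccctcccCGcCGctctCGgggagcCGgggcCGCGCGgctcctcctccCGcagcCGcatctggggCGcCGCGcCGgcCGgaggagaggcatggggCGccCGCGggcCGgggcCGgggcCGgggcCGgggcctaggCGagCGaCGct
The Dlgap3 start used by this table lies inside the annotated span of the gene and not at its outer end. Dlgap3 and Shank3 each held 4 CG dinucleotides, a number that 38.0% of all 33469 windows did not exceed, with a GC content of 54.0% and 56.3% against a median of 51.7%. Dlgap4 held 50, reached by 0.729% of windows, with a GC content of 85.3%. Dlg4, at 68.7% GC and 9 CG dinucleotides, lay between them. Windows of other genes that were not lower in KO were also poor in CG dinucleotides. The Dlg2 window held 3, with 42.3% GC, and the Dlgap1 windows held 7 and 6, with 43.3% and 39% GC. A low number was thus not particular to Dlgap3 and Shank3. On either strand, the GC box GGGCGG (in 33.1% of all windows), the E-box CACGTG (6.42%), the CRE core TGACG (21.2%) and the TATA box TATAAA (14.2%) had no match in the windows of Dlgap3, Shank3, Dlg2 and Dlg4. Dlgap4 had 2 GC boxes, and the second of the Dlgap1 windows had 2 TATA boxes.

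Genes encoding the proteins that SHANK and DLGAP scaffolds hold, such as the Homers, cortactin and the actin regulators, gave few calls. Of 15 genes tested, 0 were lower and 1 was higher at an unadjusted p under 0.05, against the 5.15% and 4.19% of all genes given above. Their values were negative for 10 and positive for 5, with a median log2 fold change of -0.05, and that of the cortactin gene Cttn, named outside the rule, was too imprecise to read (-0.59, SE 0.88). The higher one was Cttnbp2, which encodes a cortactin-binding protein of dendritic spines, at 313, 339 and 322 CPM in WT and 415, 357 and 385 CPM in KO. Its libraries did not overlap (log2 fold change 0.25, SE 0.067, unadjusted p = 0.0022, adjusted p = 0.289, edgeR). For Dynll2, a dynein light chain that binds DLGAP proteins, the value was -0.11 (SE 0.061), and for Homer3 it was -0.18 (SE 0.12), both with overlapping libraries.

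Among genes for proteins that DLG scaffolds bind or are modified by, 4 of 24 tested (of 27 listed) were lower and 0 were higher. The shares over all genes tested were 5.15% and 4.19%, and the median log2 fold change of the list was -0.01. The lower genes were Abhd17a, Begain, Agap2 and Cacng8, the last of which falls outside the rule for naming genes and is given because it completes the count. Abhd17a encodes an enzyme that removes palmitate from PSD-95. It was at 163, 179 and 138 CPM in WT and at 119, 135 and 124 CPM in KO (log2 fold change -0.34, SE 0.088, adjusted p = 0.268, edgeR), and it too was among the genes the study displayed from these libraries. Begain, which encodes a protein bound by the guanylate kinase domain of PSD-95, was at 238, 240 and 221 CPM in WT and at 215, 201 and 198 CPM in KO (-0.19, SE 0.062). Agap2, a GTPase that acts at synapses, had a value of -0.17 (SE 0.059). Cacng8, which encodes an auxiliary subunit of hippocampal AMPA receptors, was at -0.19. None of them passed at an adjusted p under 0.05.

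Other scaffolds gave few calls. Of 25 further excitatory scaffolds, 1 was lower and 0 were higher, against 5.15% and 4.19% of all genes tested. Their median log2 fold change was -0.0016. The gene that was lower was Ppp1r9b (spinophilin, which brings a phosphatase to actin in spines), at -0.14 (SE 0.060). The summed level of the list was 3328 to 3370 CPM in WT and 3144 to 3276 CPM in KO, without overlap. Most of that difference lay in Ppp1r9b, with a mean of 1321 CPM in WT and 1194 CPM in KO. The sum therefore does not show a joint drop of the list. Lin7b had a value of -0.19 (SE 0.091) and Lrrc7, the gene of densin, 0.18 (SE 0.089), both short of the threshold. At inhibitory synapses Shisa7, an auxiliary subunit of GABAA receptors, was at 263, 283 and 284 CPM in WT and 327, 307 and 343 CPM in KO, without overlap. Its log2 fold change was 0.24 (SE 0.063, unadjusted p = 0.0021, adjusted p = 0.289, edgeR), and Lhfpl4 had a value of -0.18 (SE 0.10).

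On the presynaptic side 0 of 16 active zone scaffolds passed in either direction, and 1 was higher with DESeq2, with non-robust dispersion and with the replicate block. Of them 12 had positive values, with a median log2 fold change of 0.06, and the smallest p belonged to Rims2 at 0.27 (SE 0.13, unadjusted p = 0.063 in edgeR and 0.033 in DESeq2), whose libraries did not overlap, followed by Erc1 and Unc13c. A further list held 7 mRNAs known to lie in dendrites, as Shank and Dlgap mRNAs partly do in rodent neurons. Of these 7, 2 were lower and 0 were higher, against 5.15% and 4.19% of all genes tested. The lower ones were Limk1, a kinase that acts on the actin-severing protein cofilin, at -0.21 (SE 0.072), and Psd, an exchange factor for a small GTPase, at -0.17 (SE 0.075). Map2, the microtubule protein of dendrites, varied widely between WT libraries and had a value of 0.19 (SE 0.15). No gene of these lists was called at an adjusted p under 0.05 by edgeR. The small counts moved with single libraries. Without WT replicate 3, 4 SHANK and DLGAP partners and 3 other excitatory scaffolds were lower and 2 active zone scaffolds were higher, and without KO replicate 2, or either of WT replicates 1 and 2, the lower DLG partners were 2, the lower excitatory scaffolds 0 and the lower dendritic mRNAs 1.

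**Figure D5:**
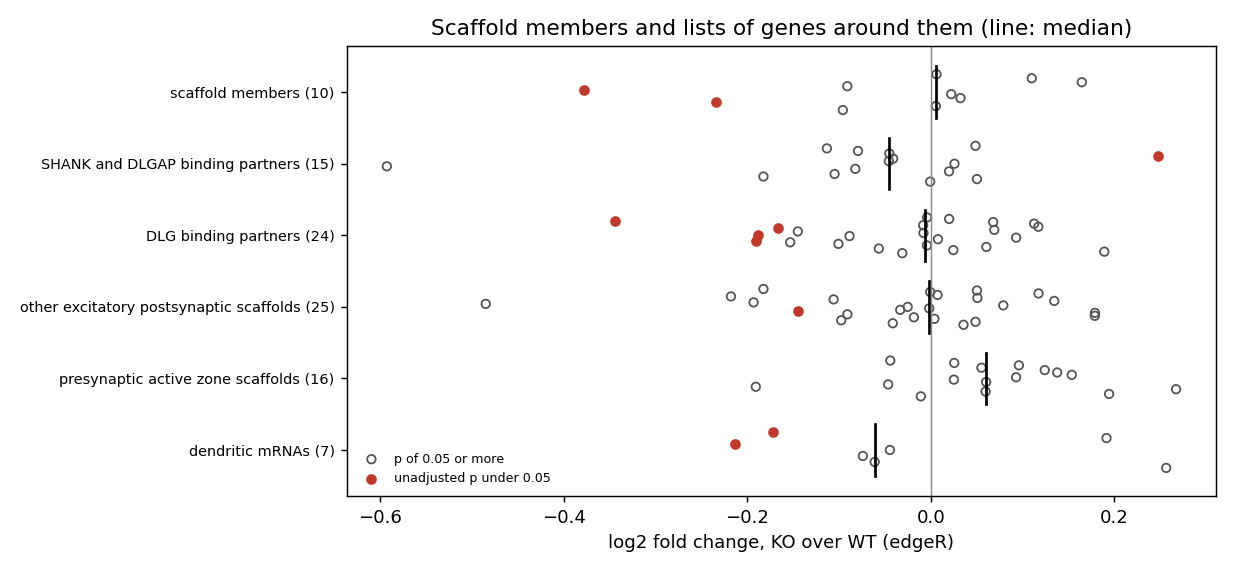
Log2 fold change of KO over WT (x axis) for each tested gene of the 10 scaffold members and of 5 lists around them (rows, number tested in brackets), with a line at each median and filled points where the unadjusted p was under 0.05. Medians lie between -0.061 (dendritic mRNAs) and 0.060 (active zone scaffolds), and Dlgap3 is the filled point farthest to the left.

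The genes whose profile over the 6 libraries was nearest to that of Dlgap3, among 8929 genes with a mean of at least 10 CPM, were Tmem151b, Bloc1s1 and Tmem63a, at distances of 0.077, 0.091 and 0.10 in log2 CPM centred on each gene's mean. Tmem151b, a membrane protein, was at 68.6, 72.3 and 69.2 CPM in WT and at 53.3, 56.5 and 54.9 CPM in KO. Bloc1s1 encodes a subunit of a complex that makes lysosome-related organelles, and Tmem63a a mechanically gated ion channel. Shank3 was nearest to Aldh9a1, an aldehyde dehydrogenase, Pla2g12a, a phospholipase, and Ogg1, an enzyme of DNA base repair, at 0.086, 0.086 and 0.088. The distance between Dlgap3 and Shank3 themselves was 0.29. The genes above were picked for the smallest distances, so no comparison with theirs is drawn. The genes on either side of Shank3 in the RefSeq annotation, Arsa and Rabl2, chosen outside the naming rule, had log2 fold changes of 0.0003 and -0.0005.

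In tissue, fewer cells of a type and less RNA per cell cannot be told apart, so the markers of the cells in the sample are given beside the lower values of Dlgap3 and Shank3. Excitatory neuron markers overlapped between genotypes (5151 to 6300 CPM summed in WT, 5256 to 5582 CPM in KO), as did the 12 striatal markers (231 to 253 and 212 to 248 CPM), a region in which Dlgap3 and Shank3 are known to be high. CA pyramidal markers also overlapped in sum (1333 to 1585 and 1271 to 1415 CPM), with 3 of 7 tested (of 12 listed) lower and 0 higher. Neocortical markers overlapped in sum too (356 to 374 and 349 to 403 CPM), with 2 of 8 tested (of 9 listed) lower and 0 higher. For oligodendrocyte precursors the sums overlapped (520 to 640 and 450 to 574 CPM), with 1 of 6 tested (of 8 listed) lower and 0 higher. Over all genes tested, 5.15% were lower and 4.19% were higher. The sum of 16 myelin and oligodendrocyte markers was 13893 to 14685 CPM in WT and 10949 to 12614 CPM in KO, without overlap. Against the same shares of all genes, 8 of these 16 were lower and 0 higher, with a median log2 fold change of -0.25. Choroid plexus and ependymal markers were low in all libraries (33.0 to 38.8 CPM in WT, 27.4 to 31.4 CPM in KO), again without overlap, with Otx2 at 0 throughout. The part of these markers in the values of Dlgap3 and Shank3 was not tested.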

How the data were processed

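Hippocampal RNA of 3 WT and 3 KO rats was extracted with TRIZOL and sequenced as single-end reads. The authors aligned reads to rn6 with HISAT2 and counted them with htseq-count (intersection non-empty); versions, annotation and strand setting are not given in the sources used here. The deposited table used holds raw counts per gene, without normalization, and 0 of its value columns were left unmatched. A second deposited table, the authors' own comparison of the groups, was not used.

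Tests on the counts used edgeR 4.0.16 under R 4.3.3 (filterByExpr with minimum count 10, TMM, robust quasi-likelihood test, two-sided, Benjamini-Hochberg over 11800 genes). DESeq2 1.42.0 was an alternative. CPM for ratios and profiles were log2 with a prior count of 2. Scripts were tested on simulated data. P-values measure the spread between these libraries, 1 per rat. Symbols were matched to RefSeq (GRCr8) for names and neighbours, 15501 of 17455 directly, all 10 members among them.

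The members and gene lists were chosen with earlier results of these data known. Named genes were the members, Fmr1, Dlg1, up to 3 genes per list with the smallest p, and the 3 genes nearest in profile to Dlgap3 and to Shank3; some genes that these choices take in are not reported here. Alternatives were other scalings, no filter, DESeq2, non-robust dispersion, a replicate block and leaving out each library.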

Additional observations from a re-analysis of the deposited data

How the results depend on the processing

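Of 156 values of log2 fold change (12 genes, 13 alternatives), 140 kept their sign and side of the adjusted threshold, and Dlgap3 and Shank3 stayed negative in all of theirs. Genes called at an adjusted p under 0.05 were 3 in the main analysis, 9 with no filter on low counts, 35 with DESeq2, and 1 to 256 without 1 library (256 without WT replicate 3). Genes lower at an unadjusted p under 0.05 (608) ranged from 377 to 1062 without 1 library, and genes higher (495) from 324 to 1033. The count of the 10 scaffold genes called at an adjusted p was 0 in the main analysis, 1 with no filter, 1 with DESeq2 and 0 to 1 without 1 library, and the gene was Dlgap3 each time. Its log2 fold change was -0.38 with no filter (adjusted p = 0.0169) and -0.38 with DESeq2, and -0.41 to -0.33 without 1 library; its adjusted p under the other scalings and non-robust dispersion was 0.0554 to 0.127. Scaffold genes higher at an unadjusted p were 0, and 0 to 1 without 1 library (Dlg2, without WT replicate 3). Signs turned for Shank2 with upper quartile scaling (-0.00014) and, when single libraries were left out, for Shank2 (-0.088 to 0.145), Dlgap2 (-0.084 to 0.112), Dlg4 (-0.033 to 0.059) and Dlg1 (-0.0195 to 0.078). The cause was not tested. No scaling moved the median of all genes by more than 0.012.

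Same-numbered WT and KO libraries correlated at 0.028, -0.0088 and -0.078 in their deviations, and those with unlike numbers at -0.080 to 0.083. The numbers thus gave no sign of a pairing, but with 3 libraries per group such values cannot exclude one. With the replicate block, 17 genes and 1 scaffold gene, Dlgap3 (-0.38, adjusted p = 0.0363), were called, and 1 scaffold gene, Dlg2, was higher at an unadjusted p (0.032). Of the 96 alternative values of paralog ratios, 4 changed sign (Dlgap1 to Dlgap2 in 2, Dlgap2 to Dlgap4 and Dlg2 to Dlg3), to values between -0.08 and -0.01. Low counts limit Shank2 most.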
